A study of Mus musculus with 12 samples.

Results

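Chemokines and their receptors were followed through every gene of the count table whose symbol names a chemokine, a chemokine receptor or an atypical chemokine receptor. The symbols were matched by their pattern alone (Ccl, Cxcl, Cx3cl1, Xcl1, Pf4 and Ppbp for ligands, Ccr, Cxcr, Cx3cr1 and Xcr1 for receptors, Ackr and Ccrl2 for atypical receptors). No measured value entered the matching, but these genes were chosen for study with earlier results of these data known. The matching found 47 of the 22317 symbols, namely 29 ligands, 13 receptors and 5 atypical receptors. A list of 60 chemokine system genes held 13 symbols that the table has no row for, among them Ccl19, Ccr7 and Cxcl2, and these were not analysed here.

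RNA of brain cortex and of interparietal bone, a bone of the skull roof, was sequenced from male BALB/c mice 8 weeks old, in 12 libraries of poly(A) mRNA. SB2 and SB4 are labelled as brain cortex taken 2 and 4 days after an ischemic injury of the skull. BS2 and BS6 are labelled as interparietal bone taken 2 and 6 days after an ischemic injury of the brain. Each group holds 3 libraries. The injury was a photothrombosis, in which the dye Rose Bengal circulates in the blood and a laser beam closes the vessels of a small spot, and the mice of all 4 groups had one. Uninjured controls and the injured tissues themselves were not analysed here, so no value below is a change against uninjured tissue. The study names biological replicates, but the labels do not tie a library to a mouse, so the p-values measure the spread between these libraries.

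Chemokines are small secreted proteins that guide migrating leukocytes, and they act through receptors that couple to inhibitory G proteins. CC and CXC chemokines are named after the spacing of their first cysteines, and a few of them, such as CXCL12, are made constantly and hold cells in a niche, while others appear on inflammation. Atypical receptors bind chemokines without G protein signalling and scavenge or transport them. In the brain CX3CL1 sits on neurons and its receptor CX3CR1 on microglia, and in bone marrow CXCL12 retains blood progenitors and neutrophils that carry CXCR4.

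The tissue labels were checked against marker genes before the members were read. The summed level of 12 neuron genes was 82.9 to 130 CPM, the count scaled to the library total, in SB2 and 83.9 to 166.7 CPM in BS6, against 13330 to 14210 CPM in SB4 and 12950 to 13340 CPM in BS2. The 9 measured genes of osteoblasts and osteocytes summed to 39650 to 45170 CPM in SB2 and 22460 to 83160 CPM in BS6, but to 24.5 to 28.2 CPM in SB4 and 25.4 to 37.3 CPM in BS2. The libraries labelled SB2 and BS6 thus held bone transcripts and those labelled SB4 and BS2 brain transcripts, whatever tissue the label names. In both comparisons of a late with an early day, SB4 against SB2 and BS6 against BS2, day and kind of tissue transcript therefore cannot be told apart. BS6 against SB2 compares libraries that both held bone transcripts, and SB4 against BS2 libraries that both held brain transcripts, but in each of them the label, the day and the site of injury differ together. Whether the labels SB2 and BS2 stand for each other's libraries could not be settled here. If they do, these are comparisons of days within one tissue after injury at one site. Total counts were 14126082 to 18972654 per library. BS6 replicate 2 stood apart, with a summed level of 26630 CPM for 10 neutrophil genes against 1604 and 3636 CPM in replicates 1 and 3. Some values that rest on this library are given with and without it, and the others with it alone.

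The members took 0.0887% to 0.0967% of all counts in BS2, 0.0930% to 0.108% in SB4, 0.172% to 0.211% in SB2 and 0.126% to 0.200% in BS6. Of the 47 members, 46 or 47 had a count in each library of SB2 and BS6, and 33 to 39 in each library of SB4 and BS2. The mean reached 1 CPM for 40 members in SB2, 43 in BS6, 14 in SB4 and 15 in BS2. Different ligands dominated the libraries with brain and with bone transcripts. Cx3cl1 alone made up 64.4% to 68.7% of the summed CPM of the members in SB4 and BS2, and 1.3% to 2.2% in SB2 and BS6. Cxcl12 made up 35.6% to 39.1% of that sum in SB2 and 25.8% to 36.4% in BS6, against 7.5% to 10.4% in SB4 and BS2. In a bulk library, fewer cells of a type and less RNA per cell cannot be told apart.

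**Figure D1:**
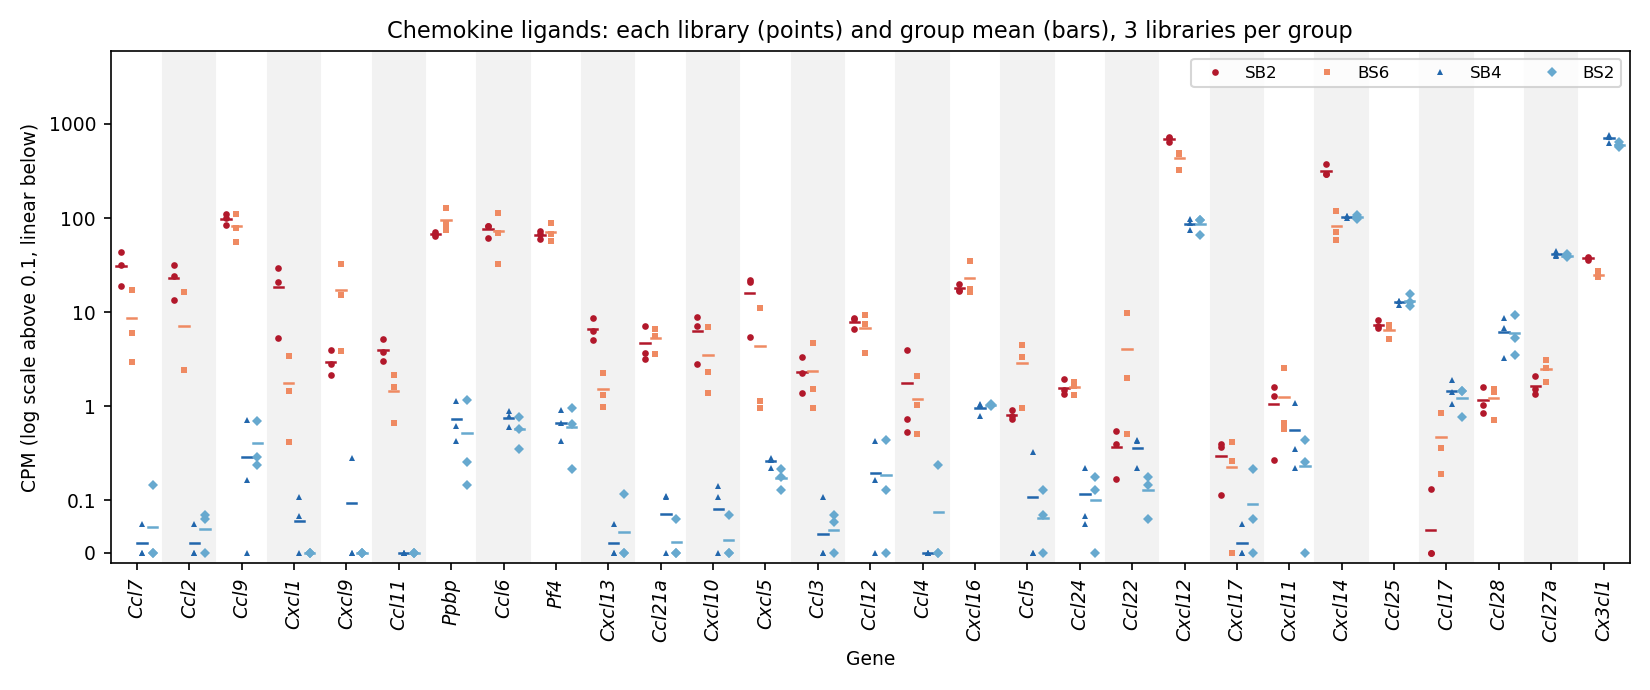
Level of the 29 chemokine ligands in CPM (vertical axis, logarithmic above 0.1 and linear below), with a point for each of the 3 libraries per group and a bar for the group mean. Genes are ordered from the highest to the lowest ratio of the SB2 and BS6 means to the SB4 and BS2 means, each with a small constant added, and Cx3cl1 at the right end lies at 574 to 764.5 CPM in SB4 and BS2 against 23.7 to 39.1 CPM in SB2 and BS6.

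Levels of different genes were compared per length, as CPM per kilobase of exon. In SB2 the order on this scale was Cxcl14 (175.1), Pf4 (92.4), Cxcl12 (84.7), Ppbp (62.8) and Ccl6 (42.2). In BS6 it was Pf4 (98.2), Ppbp (89.2), Cxcl12 (53.2), Cxcl14 (45.3) and Ccl6 (40.2), followed by the receptor Cxcr2 (39.8). The place of Cxcr2 came from replicate 2, without which its level was 8.08 CPM per kilobase and its rank 16, and Ccl9 (31.1) came before Ccl6 (28.6). With all libraries the same 5 genes led both groups, and Cxcl14 was ahead of Pf4, Cxcl12 and Ppbp in SB2 and behind them in BS6. SB4 and BS2 had one order for the first 6 members. It began with Cx3cl1 (179.8 and 153.6 CPM per kilobase), Cxcl14 (56.6 and 56.1), Ccl27a (17.5 and 16.8) and Ackr1 (14.2 and 10.7), and went on with Cxcl12 and Cx3cr1.

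Genes were compared between groups by the quasi-likelihood test of edgeR with Benjamini-Hochberg adjustment over all genes tested, and a call required that the adjusted p lay below 0.05 while the level changed by more than 1 log2 unit. In SB4 against SB2, 42 of the 47 members passed the filter on low counts. Of these, 32 were called lower in SB4, or 76.2%, while 28.6% of all genes tested were called lower. Another 7 were called higher, or 16.7%, against 27.8% of all genes. In BS6 against BS2, 42 members were tested and 32 were called higher in BS6, or 76.2% against 29% of all genes. Another 5 were called lower, or 11.9% against 26.5% of all genes. The median log2 fold change was -4.23 for the members in SB4 against SB2 and -0.01 for all genes, and 5.10 against 0.02 in BS6 against BS2. With the members that had 0 to 3 counts in a group set to their bound or ratio, the medians were -4.17 and 4.71. Many members passed the filter through their level in a single group: 19 of the 42 members in SB4 against SB2, and 18 of the 42 in BS6 against BS2, had under 10 counts in every library of the other group, so these counts and medians describe the tested members only. With at least 10 counts asked of every library, 15 members were tested in each comparison. Of these, 8 were called lower in SB4 than in SB2 and 5 higher, against 24.8% and 23.4% of all genes, and 6 were called higher in BS6 than in BS2 and 5 lower, against 25.3% and 22.7%. The call was lower in SB4 than in SB2 and higher in BS6 than in BS2 for 30 of the 40 members tested in both, 18 ligands and 12 receptors, atypical ones included, and for 25.2% of all genes tested in both. Ackr2, Ccl27a, Ccl28 and Cx3cl1 were called the other way in both comparisons, as were 24% of all genes, and the remaining 13 members were not called in at least one of them.

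Cx3cl1 encodes fractalkine, a chemokine anchored in the membrane of neurons, and lies at chr8:94772009-94782427 on the plus strand of mm10. Its level was 723.9, 632 and 764.5 CPM in SB4 replicates 1 to 3, and 574, 637 and 599.7 CPM in BS2. In SB2 it was 39.1, 36.3 and 37.8 CPM, and in BS6 23.7, 24.2 and 27.4 CPM. Every library of SB4 and BS2 was above every library of SB2 and BS6. Cx3cl1 was higher in SB4 than in SB2 by 4.23 on the log2 scale (SE 0.10, edgeR adjusted p = 9.04e-12) and lower in BS6 than in BS2, with a log2 fold change of -4.55 (SE 0.12, edgeR adjusted p = 2.75e-06). Cx3cr1, the fractalkine receptor that marks microglia and some monocytes, differed far less, with 32.9 ± 3.50 CPM (SD, n = 3) in SB4, 31.9 ± 2.52 in BS2, 20.7 ± 1.54 in SB2 and 27.5 ± 7.15 in BS6. It passed the adjusted p in SB4 against SB2 (log2 fold change 0.68, edgeR adjusted p = 8.92e-05) without reaching the fold change threshold, and was not called in BS6 against BS2 (-0.18, edgeR adjusted p = 0.456). Of the microglia genes beside it, P2ry12 was at 40.0 and 48.2 CPM in SB4 and BS2 against 10.4 and 14.2 CPM in SB2 and BS6. The 8 genes of the microglia list nevertheless summed to 446.8 to 1053 CPM in SB2 and BS6 and to 163.9 to 188.7 CPM in SB4 and BS2, with Tmem119 and Olfml3 higher in the libraries with bone transcripts. The part of any one cell type in the level of Cx3cr1 was not tested.

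Of the 4 ligands that bind CCR4, CCR6 or CCR10, 3 were called higher in SB4 than in SB2 and 2 lower in BS6 than in BS2, beside 27.8% and 26.5% of all genes. Among the 3, Ccl17 had under 10 counts in every SB2 library and passed the filter on low counts only through SB4. Ccl27a, whose product attracts T cells through CCR10, was at 41.7 ± 2.83 CPM in SB4 and 39.9 ± 1.79 CPM in BS2, against 1.66 ± 0.37 CPM in SB2 and 2.49 ± 0.65 CPM in BS6. It was 25.2-fold higher in SB4 than in SB2 and 15.6-fold lower in BS6 than in BS2 (edgeR adjusted p = 9.99e-11 and 1.24e-05). Ccl27a has close paralogs, so its reads may have been divided by the counting. Ccl28, a mucosal ligand of CCR10 and CCR3, was at 6.24 ± 2.74 CPM in SB4 and 6.06 ± 2.98 CPM in BS2, against 1.16 ± 0.39 and 1.23 ± 0.44 CPM in SB2 and BS6, and was called in both comparisons. Ccl22, which had too few counts for the test and is named here after its values were seen, was at 4.07 ± 4.94 CPM in BS6 and at means of 0.13 to 0.37 CPM in SB2, SB4 and BS2, and without the filter on low counts it was called higher in BS6 than in BS2.

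Cxcl12 encodes the stromal niche factor that binds CXCR4 and ACKR3, and lies at chr6:117168535-117181367 on the plus strand. It was at 716, 637 and 725 CPM in SB2, and at 327, 497 and 481 CPM in BS6. In SB4 it was at 88.1, 74.0 and 97.4 CPM, and in BS2 at 66.4, 94.97 and 96.5 CPM. The 5 measured genes of marrow stroma and marrow endothelium summed to 160.6 to 239.5 CPM in SB2 and BS6 and to 83.6 to 108.6 CPM in SB4 and BS2. Within that sum Lepr was at 61.8 and 51.8 CPM in SB2 and BS6 against 2.17 and 4.10 CPM in SB4 and BS2, while Kitl ran opposite, at 33.5 and 31.4 CPM against 75.7 and 68.9 CPM. Their part in the level of Cxcl12 was not tested. The 4 groups thus formed 3 levels that did not overlap, SB2 above BS6 and both above SB4 and BS2. Cxcl12 was lower in SB4 than in SB2 (log2 fold change -3.00, SE 0.11, edgeR adjusted p = 4.06e-10) and higher in BS6 than in BS2 (2.38, SE 0.23, edgeR adjusted p = 0.000138). Cxcl16, a transmembrane chemokine of macrophages that binds CXCR6, was at 18.0 ± 1.67 CPM in SB2 and 22.9 ± 10.5 CPM in BS6, against 0.96 ± 0.15 and 1.03 ± 0.02 CPM in SB4 and BS2. Its exons share 552 bases, or 18.3%, with Zmynd15 on the opposite strand, which was at 9.75 and 12.7 CPM in SB2 and BS6 and below 1 CPM in SB4 and BS2, and the part of its reads was not tested.

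Cxcl14, a chemokine of epithelia and connective tissue with a debated receptor, lies at chr13:56288643-56296551 on the minus strand. It was at 372.8, 292 and 294.7 CPM in SB2, and at 58.2, 71.5 and 118.6 CPM in BS6. In SB4 it was at 104, 105 and 101 CPM, and in BS2 at 107, 102 and 98.1 CPM. The SB2 libraries stood above all others, while BS6 overlapped SB4 and BS2. Cxcl14 was lower in SB4 than in SB2 (log2 fold change -1.62, SE 0.10, edgeR adjusted p = 2.45e-08), and was not called in BS6 against BS2 (-0.27, SE 0.26, edgeR adjusted p = 0.363).

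Pf4 and Ppbp encode CXC chemokines of the platelet alpha granule, and PPBP gives rise to a CXCR2 ligand by cleavage. Pf4 was at 59.3, 73.7 and 66.97 CPM in SB2, and at 67.8, 88.1 and 56.5 CPM in BS6. Every library of SB4 and BS2 had less than 1 CPM of Pf4, from 0.22 to 0.96 CPM. Ppbp was at 65.2, 67.1 and 71.7 CPM in SB2 and at 75.6, 127.9 and 86.4 CPM in BS6. In SB4 and BS2 it ranged from 0.15 to 1.18 CPM. Pf4 was 94.99-fold lower in SB4 than in SB2 and 115.7-fold higher in BS6 than in BS2 (edgeR adjusted p = 2.96e-11 and 2.50e-05), and Ppbp changed 89.5-fold and 177.4-fold in the same directions. The 8 measured genes of megakaryocytes and platelets summed to 432.5 to 856.1 CPM in SB2 and BS6 and to 24.2 to 50.8 CPM in SB4 and BS2, with Gp9 at 0.06 and 0.22 CPM in SB4 and BS2.

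The remaining CXCR2 ligands, the neutrophil attractants Cxcl1 and Cxcl5, were highest in SB2. Cxcl1 was at 18.6 ± 12.3 CPM in SB2 and 1.78 ± 1.54 CPM in BS6, with 3 counts in the whole of SB4 and none in BS2. The floor of 3 counts summed over BS2 makes Cxcl1 at least 26.9-fold higher in BS6, where it had too few counts for the test. Without BS6 replicate 1 the bound was 14.4, and 29.1 to 37.8 without either of the others. Cxcl5 was at 16.1 ± 9.30 CPM in SB2, 4.42 ± 5.83 CPM in BS6, 0.26 ± 0.03 CPM in SB4 and 0.17 ± 0.04 CPM in BS2. It was called in both comparisons of a late with an early day, but in BS6 against BS2 not without BS2 replicate 1 or 2 (edgeR adjusted p = 0.0539 and 0.0574).

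The interferon-induced ligands of CXCR3 were Cxcl9, Cxcl10 and Cxcl11, which lie together at chr5:92321347-92365485. Cxcl9 was at 17.4 ± 14.6 CPM in BS6 and 2.96 ± 0.93 CPM in SB2, with 4 counts in 1 library of SB4 and none in BS2. It was at least 266.4-fold higher in BS6 than in BS2 against the floor of 3 counts, and at least 281.6-fold without BS6 replicate 2, where the call was lost (edgeR adjusted p = 0.0792). Without BS6 replicate 1 the bound was 151.2, and without replicate 3 it was 368. Cxcl10 was at 6.30 ± 3.15 CPM in SB2 and 3.55 ± 3.00 CPM in BS6, and at 0.08 and 0.02 CPM in SB4 and BS2. Cxcl11 was at 1.05 and 1.26 CPM in SB2 and BS6 and at 0.55 and 0.23 CPM in SB4 and BS2, and its model in GENCODE is a polymorphic pseudogene that shares 41.7% of its exon bases with the pseudogene Gm2673 on the opposite strand.

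The CCR2 ligands, which draw monocytes out of marrow and into inflamed tissue, lie next to each other on chromosome 11 (chr11:82035571-82103400, together with Ccl11). Ccl2 was at 23.2 ± 9.12 CPM in SB2 and 7.13 ± 8.17 CPM in BS6, and Ccl7 at 31.4 ± 12.3 and 8.74 ± 7.5 CPM. SB4 held 1 count of each gene over its 3 libraries and BS2 held 2. The ratio of Ccl2 in SB2 to that in SB4 was 1185, with an exact 95% counting interval of 212.3 to 46850. Ccl12, a related mouse ligand, was at 7.87 ± 1.11 CPM in SB2 and 6.85 ± 2.85 CPM in BS6, against 0.20 and 0.19 CPM in SB4 and BS2. All 3 ligands were called lower in SB4 than in SB2 and higher in BS6 than in BS2, beside 28.6% and 29% of all genes. Each had under 10 counts in every library of SB4 and BS2. They passed the filter on low counts only through SB2 and BS6, so these calls describe the tested ligands only.

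A neighbouring cluster on the same chromosome (chr11:83525778-83664683) holds the inflammatory CC ligands Ccl5, Ccl9, Ccl6, Ccl3 and Ccl4. Ccl9 and Ccl6, CCR1 ligands that mouse myeloid cells make, were the most abundant of them. Ccl9 was at 98.2 ± 13.03 CPM in SB2 and 81.7 ± 28.0 CPM in BS6, against 0.29 ± 0.37 CPM in SB4 and 0.41 ± 0.26 CPM in BS2. Ccl6 was at 75.8 ± 11.9 and 72.2 ± 40.6 CPM in SB2 and BS6, against 0.76 ± 0.15 and 0.57 ± 0.21 CPM. Ccl3, Ccl4 and Ccl5 stayed below 3 CPM in every group mean. Together with the CCR3 ligands Ccl11 and Ccl24 they are 7 ligands, of which 6 were tested and called lower in SB4 than in SB2, and 6 were tested and called higher in BS6 than in BS2, beside the same shares of all genes as the members together. The untested one was Ccl4 in both.

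The ligands of CCR7 and CCR9 divided between the sides. Ccl21a, which guides T cells and dendritic cells and has near-identical copies, was at 4.68 ± 2.19 CPM in SB2 and 5.29 ± 1.58 CPM in BS6, with 4 counts in all of SB4 and 1 in BS2. Ccl25, a ligand of CCR9, was at 12.7 ± 0.72 CPM in SB4 and 13.3 ± 2.103 CPM in BS2 against 7.37 ± 0.73 CPM in SB2 and 6.44 ± 1.14 CPM in BS6. Its log2 fold change was 0.79 in SB4 against SB2, under the threshold, and -1.01 in BS6 against BS2, where it was called lower. That call was lost with upper-quartile factors and without BS2 replicate 1 or BS6 replicate 2, with log2 fold changes of -0.93, -0.90 and -0.87.

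**Figure D2:**
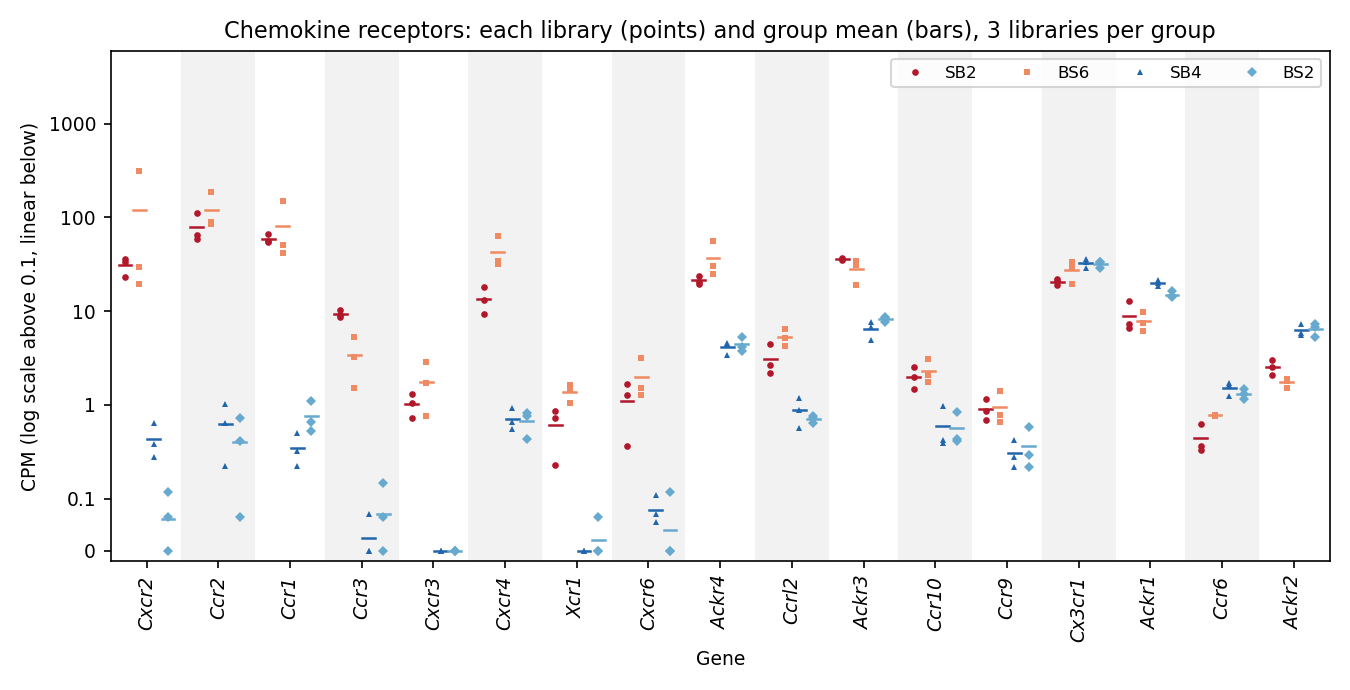
Level of 17 chemokine receptors and atypical receptors in CPM (vertical axis, logarithmic above 0.1 and linear below), with a point for each of the 3 libraries per group and a bar for the group mean. Genes are ordered as in the plot of the ligands, and the point of BS6 replicate 2 for Cxcr2, at 314.8 CPM, lies far above the other libraries.

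Of the 7 CC receptors, 6 were called lower in SB4 than in SB2 and 6 higher in BS6 than in BS2, beside 28.6% and 29% of all genes. Ccr6 was the exception in both, and the call of Ccr9 in BS6 against BS2 was lost under some alternatives, named further on. Ccr1, Ccr3 and Ccr9 had under 10 counts in every SB4 library, as did Ccr3 and Ccr9 in BS2. There they passed the filter on low counts only through SB2 or BS6. Ccr9, Cxcr6, Xcr1, Ccr1, Ccr3 and Ccr2 lie in this order on chromosome 9. Ccr1, a receptor of neutrophils, monocytes and osteoclast precursors, was at 66.8, 56.6 and 54.7 CPM in SB2 and at 42.1, 148.6 and 51.4 CPM in BS6. In SB4 it was at 0.22 to 0.50 CPM and in BS2 at 0.53 to 1.09 CPM. Ccr2, the receptor of inflammatory monocytes, was at 111.8, 64.9 and 58.9 CPM in SB2 and at 89.4, 188.8 and 84.5 CPM in BS6. In SB4 it ranged from 0.22 to 1.03 CPM and in BS2 from 0.06 to 0.73 CPM. For both receptors no library of SB2 or BS6 overlapped SB4 or BS2. Their log2 fold changes were -7.42 and -6.93 in SB4 against SB2, and 6.77 and 8.28 in BS6 against BS2, or 5.97 and 7.81 without BS6 replicate 2. Ccr3, the eosinophil receptor, was at 9.36 ± 0.91 CPM in SB2 and 3.37 ± 1.92 CPM in BS6, with 1 count in SB4 and 3 in BS2.

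Cxcr2, the main receptor of neutrophils for CXC ligands, lies at chr1:74153989-74161246 on the plus strand. It was at 36.4, 33.3 and 22.9 CPM in SB2 and at 19.5, 314.8 and 29.8 CPM in BS6. SB4 held 0.28 to 0.64 CPM and BS2 0 to 0.12 CPM. Replicate 2 set the mean of BS6, and the other replicates lay in or just below the range of SB2. With 3 counts in BS2, the ratio of Cxcr2 in BS6 to that in BS2 was 1940 (exact 95% counting interval 663.5 to 9409). Without BS6 replicate 2 it was 381.5 (130.1 to 1854). Cxcr2 was called with and without BS6 replicate 2 (edgeR adjusted p = 0.00222 and 1.43e-07). Over the same replicates of BS6, the neutrophil genes Ngp and S100a8 were at 370.8, 5946 and 1017 CPM and at 177.9, 4480 and 468.7 CPM, and Ly6g was at 0 in BS2. The 10 measured neutrophil genes summed to 1001 to 1763 CPM in SB2, 10.6 to 15.8 CPM in SB4 and 6.66 to 8.14 CPM in BS2. The part of neutrophils in the level of Cxcr2 was not tested.

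Cxcr4, the CXCL12 receptor of blood progenitors, neutrophils and lymphocytes, lies at chr1:128588199-128592293 on the minus strand. It was at 17.9, 13.3 and 9.34 CPM in SB2, and at 34.6, 63.2 and 31.6 CPM in BS6. In SB4 it was at 0.92, 0.65 and 0.56 CPM, and in BS2 at 0.83, 0.77 and 0.44 CPM. Every library of BS6 was above every library of SB2, and both groups were above SB4 and BS2. Cxcr4 was 19.2-fold lower in SB4 than in SB2 and 64.0-fold higher in BS6 than in BS2 (edgeR adjusted p = 1.76e-07 and 3.86e-05). Without BS6 replicate 2 its log2 fold change in BS6 against BS2 was 5.61, against 6.00 with it. Of the 4 CXC receptors, 3 were tested and called lower in SB4 than in SB2, and all 4 were called higher in BS6 than in BS2, beside 28.6% and 29% of all genes. Cxcr2 and Cxcr3 had under 10 counts in every SB4 library, as did Cxcr2, Cxcr3 and Cxcr6 in BS2. There they passed the filter on low counts only through SB2 or BS6, so these counts of calls describe the tested receptors only.

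The atypical receptors did not move as a block. Ackr3, which scavenges CXCL12, was at 36.0 ± 1.28 CPM in SB2 and 28.2 ± 8.11 CPM in BS6 against 6.49 ± 1.42 and 8.30 ± 0.51 CPM in SB4 and BS2. Ackr4, which scavenges CCR7 and CCR9 ligands, was at 21.3 ± 2.40 and 37.4 ± 17.0 CPM in SB2 and BS6 against 4.16 ± 0.66 and 4.44 ± 0.83 CPM, and Ccrl2, which presents chemerin, was at 3.12 ± 1.22 and 5.30 ± 1.15 CPM against 0.88 ± 0.31 and 0.71 ± 0.06 CPM. All 3 were called lower in SB4 than in SB2 and higher in BS6 than in BS2, beside 28.6% and 29% of all genes. Ackr2, a scavenger of inflammatory CC chemokines, ran opposite, at 6.24 ± 0.96 and 6.50 ± 1.01 CPM in SB4 and BS2 against 2.56 ± 0.44 and 1.74 ± 0.21 CPM in SB2 and BS6.

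Ackr1, the Duffy receptor of erythroid cells and venules, was higher in the libraries with brain transcripts. It was at 20, 21.3 and 18.6 CPM in SB4 and at 14.4, 16.6 and 14.2 CPM in BS2. In SB2 it was at 12.99, 7.33 and 6.59 CPM, and in BS6 at 6.13, 9.91 and 7.51 CPM. No library of SB4 or BS2 overlapped SB2 or BS6. Its log2 fold change was 1.15 in SB4 against SB2, where the call was lost without SB2 replicate 3 (0.97). In BS6 against BS2 it was -0.90, under the threshold, but without BS6 replicate 2 Ackr1 was called lower. Its gene at chr1:173331886-173333750 shares 361 exon bases, or 25.7%, with Cadm3 on the same strand, and Cadm3, a neuronal adhesion gene, was at 398.5 and 380.6 CPM in SB4 and BS2 against 18.5 and 21.5 CPM in SB2 and BS6. The part of Cadm3 reads in the counts of Ackr1 was not tested.

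The other 15 members stayed below 5 CPM in every group mean. They are Ccl3, Ccl4, Ccl5, Ccl11, Ccl17, Ccl22, Ccl24, Cxcl11, Cxcl17, Ccr6, Ccr9, Ccr10, Cxcr3, Cxcr6 and Xcr1. Their group means ranged from 0.04 to 4.01 CPM in SB2, from 0.23 to 4.07 CPM in BS6, from 0 to 1.52 CPM in SB4 and from 0 to 1.31 CPM in BS2. Ccl11 and Cxcr3 had no count in any library of SB4 or BS2. Ccl17 and Ccr6, named here after their values were seen, were the members among them with a higher mean in SB4 and BS2 than in SB2 and BS6, with Ccl17 at 1.46 and 1.23 CPM against 0.04 and 0.47 CPM. Ccr9 was called in both comparisons. Its call in BS6 against BS2 was lost with no filter on low counts and with the replicate number as a block. Leaving out BS2 replicate 1 or 3 or BS6 replicate 3 also lost that call.

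The change from SB2 to SB4 and the change from BS2 to BS6 were set against each other in a fit of all 12 libraries. The difference was called for 44 of the 45 members tested, or 97.8%, against 73.6% of all genes. SB4 and BS2 held brain transcripts and SB2 and BS6 bone transcripts, so this difference sets the brain transcripts against the bone transcripts. A difference between the labelled tissues in their change over time cannot be told apart from that here. Cxcl14 was the single member whose log2 fold change had the same sign in SB4 against SB2 and in BS6 against BS2.

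BS6 and SB2 both held bone transcripts, and the comparison asks how chemokine genes differ between the libraries labelled as bone on day 6 after brain injury and as cortex on day 2 after skull injury. Of 44 members tested, 1 was called higher in BS6, or 2.27% against 1.11% of all genes, and 2 lower, or 4.55% against 0.741% of all genes. The member called higher was the receptor Cxcr4 (log2 fold change 1.69, SE 0.36, edgeR adjusted p = 0.0495), whose 12 values are given above. The members called lower were Cxcl14 (-1.94, SE 0.28, edgeR adjusted p = 0.0311) and Cxcl13. Cxcl13, the CXCR5 ligand that organises B cell follicles, was at 5.13, 6.39 and 8.61 CPM in SB2 and at 0.98, 2.24 and 1.34 CPM in BS6, with 1 count in SB4 and 2 in BS2. The SB2 libraries were all above those of BS6, with a log2 fold change of -2.12 (SE 0.38, edgeR adjusted p = 0.0377). In BS6 and SB2 the 8 measured B cell genes summed to 86.6 to 156.2 and to 65.6 to 82.6 CPM. The 8 measured erythroid genes summed to 7762 to 12760 CPM in BS6 and 1299 to 4613 CPM in SB2, and 2 of them, Hba-a2 and Epor, were called higher in BS6. The part of either cell type in these differences was not tested. Cxcr4 was also not called with no filter on low counts (edgeR adjusted p = 0.0552), with total counts only (0.0614) or with the replicate number as a block (0.103). With that block the edgeR adjusted p-values of Cxcl13 and Cxcl14 rose above 0.05 too, so all 3 calls were lost. The adjusted p-values of all 3 members rose above 0.05 without BS6 replicate 1 or any single library of SB2, and that of Cxcl14 alone stayed under it without BS6 replicate 3 (0.0322). Without BS6 replicate 2, the library with the high neutrophil genes, all 3 were called, and Ccl11 and Ccr3 were called lower as well. The log2 fold change of Cxcr4 was then 1.29.

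**Figure D3:**
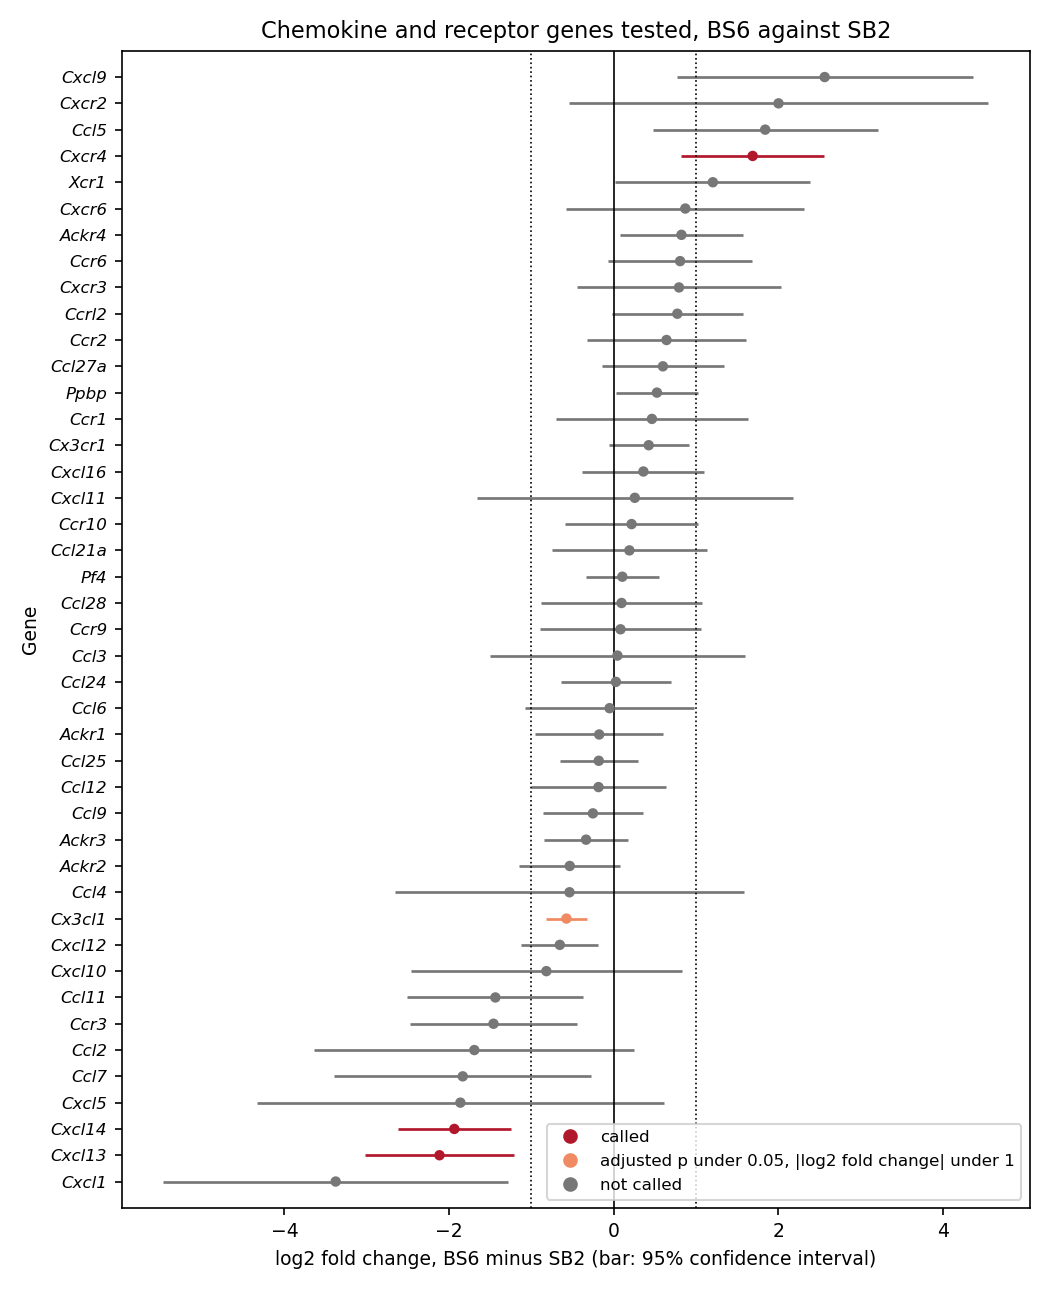
Log2 fold change of BS6 minus SB2 (horizontal axis) for 43 of the 44 chemokine and receptor genes tested (vertical axis), with points for the edgeR estimate and bars for its 95% confidence interval. Dotted lines mark a log2 fold change of 1 in either direction, and Cxcr4, Cxcl14 and Cxcl13 are the genes drawn as called.

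A large difference was more common than a call. An absolute log2 fold change over 1 was found for 13 of the 44 members tested, of which these 3 were called. The share of all genes over that limit was not computed. The median of the absolute log2 fold changes was 0.59 for the members and 0.31 for all genes. Those not called had wide intervals. Cxcl1 had a log2 fold change of -3.38 with a 95% confidence interval of -5.48 to -1.28 (edgeR adjusted p = 0.0716), and Cxcl9 one of 2.56 with an interval of 0.77 to 4.36 (edgeR adjusted p = 0.0906). For Cxcr2 it was 2.00 with an interval of -0.55 to 4.56, and without BS6 replicate 2 it was -0.32 with an interval of -0.98 to 0.35, so that the direction of this value came from that library. Ccl7, Ccr3, Ccl2 and Cxcl5 had log2 fold changes of -1.83, -1.46, -1.69 and -1.86. DESeq2 called 9 members, the 3 above and Cxcl9 and Ccl5 higher and Cxcl1, Ccl11, Ccl7 and Ccr3 lower. It called 4.61% of all genes higher and 1.87% lower, against 3 and 6 of the 44 members. An unadjusted p under 0.05 was found for 14 of the 44 members and for 29.2% of all genes. The libraries of BS6 and SB2 did not overlap for 16 members, or 36.4%, against 38.1% of all genes.

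Some members had an interval within 1 log2 unit of 0. Pf4 had a log2 fold change of 0.11 (95% confidence interval -0.34 to 0.55) between BS6 and SB2, Ccl9 one of -0.25 (-0.86 to 0.36) and Ackr3 one of -0.33 (-0.85 to 0.18). Cxcl12 had one of -0.65, with an interval of -1.12 to -0.19 that leaves out 0, but an edgeR adjusted p of 0.0931, and without BS6 replicate 2 it passed the adjusted p below the fold change threshold (-0.77, edgeR adjusted p = 0.0188). Cx3cl1 passed the adjusted p without the fold change (-0.57, SE 0.10, edgeR adjusted p = 0.0377), and its libraries did not overlap.

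**Figure D4:**
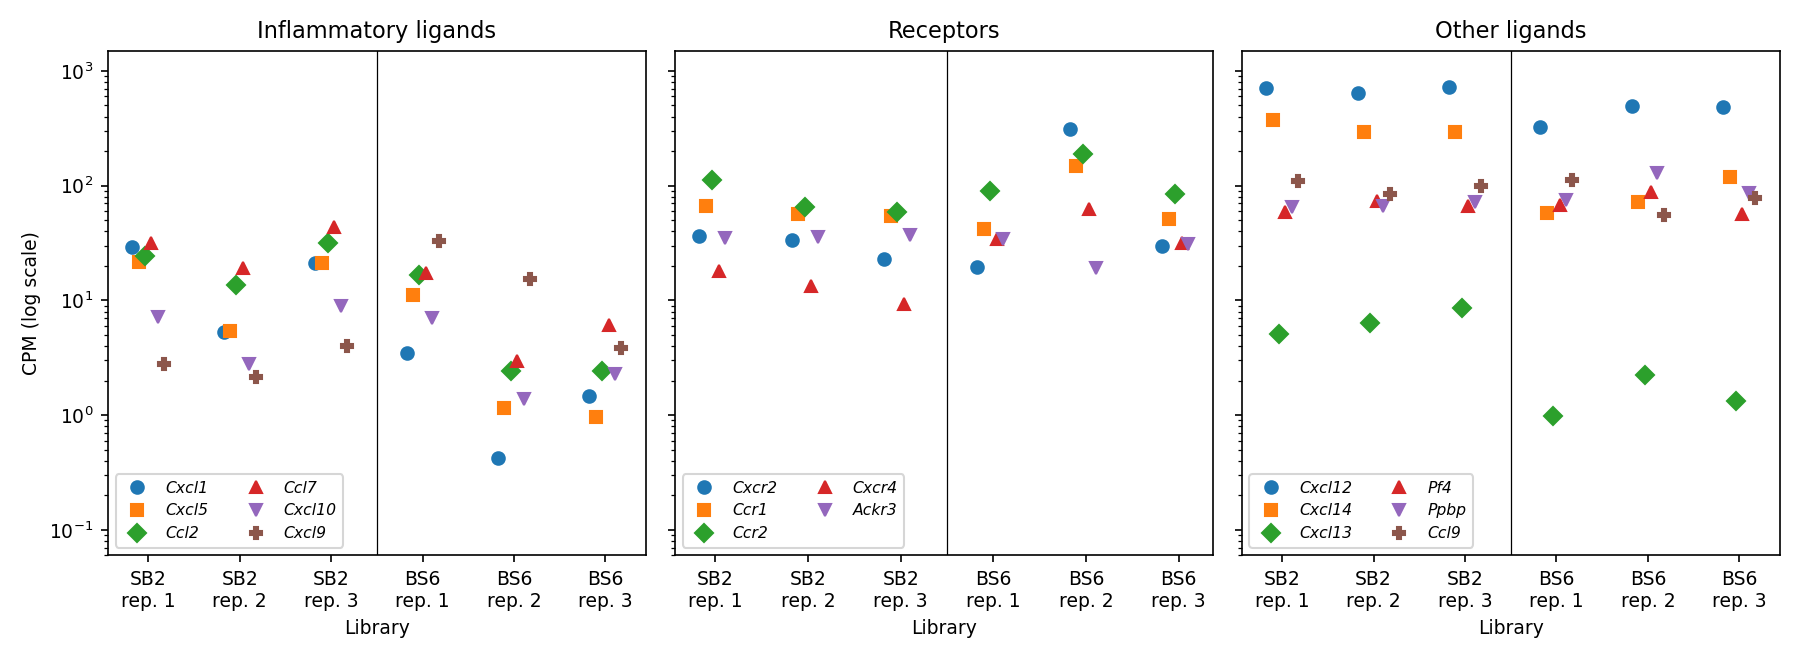
Level in CPM (vertical axis, logarithmic) of 17 ligands and receptors in each of the 3 libraries of SB2 and of BS6 (horizontal axis), 1 point per gene and library. In BS6 replicate 1 the ligands Cxcl1, Cxcl5, Cxcl9, Cxcl10, Ccl2 and Ccl7 stand above the other BS6 libraries, and in replicate 2 the receptors Cxcr2, Ccr1, Ccr2 and Cxcr4 do, while Pf4 stays between 56.5 and 88.1 CPM in these 6 libraries.

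The libraries were also compared within BS6 and within SB2, as a description. Among the 43 members whose BS6 mean reached 1 CPM, 13 were highest in replicate 1 by at least 2-fold over the next library, against 0.997% of all genes at that level. Among them were the ligands Cxcl1, Cxcl5, Cxcl9, Cxcl10, Cxcl11, Cxcl16, Ccl2, Ccl3, Ccl4, Ccl7 and Ccl22 and the receptor Cxcr6. Ccl2 was at 16.6, 2.42 and 2.42 CPM and Cxcl5 at 11.2, 1.15 and 0.95 CPM in BS6 replicates 1 to 3. Ccl22 was at 9.72, 1.99 and 0.51 CPM. In replicate 2 only Cxcr2, Ccr1 and Ccr2 stood out in this way, while 7.48% of all genes did. The lowest by at least 2-fold were 6 members in replicate 3, Cxcr3, Cxcl9, Ccl22, Ccl6, Ccl5 and Ccl4, against 0.997% of all genes. In replicate 2 they were 4 members, Cxcl1, Ccl11, Ccl7 and Ccr3, against 4.36%, and in replicate 1 it was Ccl12, against 1.53%. In SB2, 4 of 40 members were lowest in replicate 2, Cxcl1, Cxcl5, Cxcl10 and Cxcl11, against 1.14% of all genes. Cxcl1 was at 29.5, 5.26 and 21.0 CPM there. The 10 genes of monocytes and macrophages summed to 2727, 2762 and 1672 CPM over the BS6 replicates, and the genes of that list did not share one order over these libraries: Ms4a7 was at 61.8, 7.97 and 20.6 CPM, Ly6c2 at 7.43, 41.7 and 19.03 CPM and Lyz2 at 1814, 2168 and 970.6 CPM. Their part in the pattern was not tested.

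Promoter sequences of 35 members were at hand, and the stretches shown hold the matches to motifs of inflammatory transcription factors in ligands of CXCR2, CXCR3 and CCR2 and in the receptor Ccr3. They are RefSeq sequences on GRCm38.p6, 5′ to 3′ along the gene's own strand, and the capitals mark the match to the NF-kB letters GGAANTTCC or GGANTTTCC, or to the interferon response letters GAAANNGAA. Cxcl1 (plus strand, chr5:90891160-90891198), Cxcl10 (minus strand, chr5:92349024-92349117), Cxcl9 (minus strand, chr5:92328231-92328269), Ccl12 (plus strand, chr11:82101813-82101844) and Ccr3 (plus strand, chr9:124021777-124021815) read as follows.
Cxcl1: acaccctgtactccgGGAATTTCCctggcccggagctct
Cxcl10: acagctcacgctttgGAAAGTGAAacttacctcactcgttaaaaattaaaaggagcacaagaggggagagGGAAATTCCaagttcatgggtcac
Cxcl9: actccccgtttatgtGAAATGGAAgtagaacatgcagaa
Ccl12: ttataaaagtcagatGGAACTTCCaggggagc
Ccr3: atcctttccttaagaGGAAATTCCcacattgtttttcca

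The Cxcl10 stretch holds an interferon response match and, nearer the start, an NF-kB match. Windows from 250 bases before to 50 bases after the start were searched on both strands. A member was counted once if any of its windows held a match, while the shares of all promoters are per window. One or both NF-kB forms, which can match the same bases, were found in 5 of the 35 members (14.3%), Cxcl1, Cxcl10, Ccl12, Ccr3 and Ccrl2, and in 1.86% of 32817 promoter windows. The interferon response letters were found in 5 members (14.3%), Cxcl9, Cxcl10, Cxcl14, Ccl3 and Ccr2, and in 8.55% of the windows. The AP-1 letters TGANTCA were found in 7 members (20%) and in 7.81% of the windows. These are matches of letters, and no binding was measured here.

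SB4 and BS2 both held brain transcripts, and here 20 of the 47 members had enough counts for the test. By edgeR 0 of them were called higher in SB4, against 0.086% of all genes, and 0 lower, against 0.0614%. DESeq2 called 0 as well, and 3 of the 20 members, Ackr1, Cx3cl1 and Ackr3, had an unadjusted p under 0.05, as did 11.9% of all genes. Ackr1 came nearest, with a log2 fold change of 0.39 (95% confidence interval 0.17 to 0.61, edgeR adjusted p = 0.0787), and was the single member tested whose libraries did not overlap, or 5% of the members against 16.5% of all genes. Several intervals were narrow. Cxcl14 differed by -0.0037 on the log2 scale (-0.13 to 0.12), Ccl27a by 0.05 (-0.11 to 0.20), Cx3cr1 by 0.03 (-0.15 to 0.21) and Cx3cl1 by 0.21 (0.07 to 0.35). The other 27 members had too few counts for the test, and 25 of them had a count in these libraries. Among the 25, the libraries did not overlap for Cxcr2, Cxcl5 and Ccl22, higher in SB4, and for Ccr1, lower in SB4, or 16% of them against 9.65% of all untested genes with a count. For Cxcr2 the ratio of SB4 to BS2 was 6.43, from 21 and 3 counts (exact 95% counting interval 1.92 to 33.67). Of the 10 measured neutrophil genes, 3 were tested here and 1 was called, higher in SB4, beside 0.086% of all genes. S100a9 and Csf3r among the 3 were at 2.11 and 9.14 CPM in SB4 against 0.50 and 5.53 CPM in BS2 (edgeR adjusted p = 0.0117 and 0.0395). Csf3r stayed under the fold change threshold. The part of neutrophils in the ratio of Cxcr2 was not tested.

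Genes that carry the signal of chemokine receptors into the cell were read from a list of 38, all measured, which holds G protein subunits, arrestins, receptor kinases and the enzymes behind them. Of these, 19 were called lower and 9 higher in SB4 than in SB2, and 21 higher and 8 lower in BS6 than in BS2. The shares of all genes were 28.6% lower and 27.8% higher, and 29% higher and 26.5% lower. None was called in BS6 against SB2 or, among the 36 tested, in SB4 against BS2. By the mean over the 4 groups the highest were 3 G protein subunits, though not in each group taken alone. Gnai2, the inhibitory alpha subunit of leukocytes, was at 511 and 631.9 CPM in SB2 and BS6 against 122.6 and 119.9 CPM in SB4 and BS2. In BS6 replicates 1 to 3 it was at 518.3, 871.6 and 505.8 CPM, and the 38 genes summed to 3675, 7530 and 3673 CPM. Gnao1, the alpha subunit of neurons, was at 669 and 632 CPM in SB4 and BS2 against 31.0 and 42.6 CPM in SB2 and BS6. Gnb1, a beta subunit, was at 618.8 and 626 CPM against 332 and 283.6 CPM in the same order.

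The list of regulators holds proteases that cut chemokines, proteins that shape their matrix gradients, brakes on G proteins, and also Mif, Cd74, Zfp36 and Nfkbiz. Of its 19 measured genes, 12 were called lower and 1 higher in SB4 than in SB2. In BS6 against BS2, 11 were called higher and 0 lower. These counts stand beside the same shares of all genes. Mmp9, a gelatinase of osteoclasts and neutrophils that trims several chemokines, was at 925 and 893.5 CPM in SB2 and BS6 against 1.37 and 1.41 CPM in SB4 and BS2. Adam10, which sheds CX3CL1 and CXCL16 from the membrane, and Ndst1, a heparan sulfate enzyme, ranged from 91.7 to 152.5 CPM over the 4 group means. In BS6 against SB2, 2 of the 19 were called higher and 1 lower, beside 1.11% of all genes higher and 0.741% lower. Those higher were Cd74 (log2 fold change 1.77, SE 0.23, edgeR adjusted p = 0.0293) and Dpp4 (1.04, SE 0.19, edgeR adjusted p = 0.0396). Rgs16 was lower (-1.71, SE 0.27, edgeR adjusted p = 0.0327). Whether these calls hold under the alternatives is not given here. Dpp4 encodes a peptidase that inactivates CXCL12, and Rgs16 a brake on the G proteins of chemokine receptors. In SB4 against BS2, 0 of the 17 tested were called.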

How the data were processed

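Paired-end reads of 12 mouse libraries were filtered by the authors with fastp and aligned to mm10 with HISAT2 2.1.0 (a version from the submitters' processing notes). The deposited table holds raw counts for each symbol, as whole numbers that were not normalized. The counting program, its annotation and its use of strand, and whether the counts precede the ComBat_seq correction of batches, are not given in the sources used here, so that genes with overlapping exons or close paralogs are uncertain. The table has 0 columns of other samples. No 2 replicates agreed within sampling noise (chi-square per gene 4.17 to 212.8).

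Groups were taken from the labels. The robust quasi-likelihood test of edgeR 4.0.16 (R 4.3.3) was applied with TMM factors after filterByExpr at a minimum of 10 counts, with Benjamini-Hochberg adjustment over all genes tested, in fits of the 3 libraries of each of 2 groups, and the difference of both changes in a fit of all 12. The study's thresholds were used with edgeR in place of DESeq2, which is an alternative. An SE was obtained by dividing the log2 fold change by the root of its F statistic. CPM use TMM factors over 12 libraries. Levels per kilobase use the exons of GENCODE M21, in which all 47 members were found. Where a group had no count, the fold is against a floor of 3 counts summed over the group, and with 1 to 3 counts it is a ratio with an exact interval. Reads carry no molecular identifiers, and these bounds and intervals hold only counting error.

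The members and lists were chosen with earlier results of these data known. Values are given for members whose mean reached 5 CPM in any group or that were called in BS6 against SB2 or SB4 against BS2. The 5 ligands and 5 receptors highest per kilobase and those called are given by library, or by their range or summed counts in SB4 and BS2 where these are low. For each pathway list the 3 genes with the highest mean are named. Alternatives were to drop the filter or to ask for 10 counts in each library, RLE, upper-quartile or no factors, DESeq2 1.42.0, 1 fit of all libraries, no limit on the fold change, the replicate number as a block, and leaving out each library. One receptor of the 47 members is counted but not reported here by name. The scripts were tested on simulated data.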

Additional observations from a re-analysis of the deposited data

Results flagged for a closer look

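Late minus early day differed between the libraries labelled brain cortex and those labelled interparietal bone for 44 members, by the contrast of both changes in edgeR. Among members with more than 3 summed counts in every group, the differences of the log2 fold changes, SB4 minus SB2 less BS6 minus BS2, were greatest for Ccl9 (-16.17), Ccr2 (-15.24), Ccr1 (-14.20), Ppbp (-13.97) and Ccl6 (-13.67). All 5 were at no more than 1.18 CPM in each library of SB4 and BS2 and at 32.8 CPM or above in each library of SB2 and BS6. This contrast sets SB4 and BS2, which held brain transcripts, against SB2 and BS6, which held bone transcripts. A difference between the labelled tissues in their change over time cannot be told apart from the kind of tissue transcript in it. For Cxcl14, lower in SB4 than in SB2 and not called in BS6 against BS2, the difference was -1.36 (SE 0.30, edgeR adjusted p = 0.00116).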

How the results depend on the processing

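No called member changed its direction under an alternative. In both comparisons of a late with an early day the counts of calls moved by more than 1.5 times in a single alternative, at least 10 counts in every library, under which fewer members are tested: 8 members were lower in SB4 than in SB2 in place of 32, beside 5 higher, 6 were higher in BS6 than in BS2 in place of 32, beside 5 lower, and the difference of both changes was called for 12 of 13 members tested, beside 68.8% of all genes, in place of 44 of 45. BS6 against SB2 was the least stable. The single member called higher became 0 with no filter and with total counts only, and 3 with DESeq2 and in the fit of all 12 libraries. The 2 called lower became 6 with DESeq2 and 5 in the fit of all 12. Leaving out 1 library gave 0 to 1 higher and 0 to 4 lower. The cause was not tested.

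The replicate number does not pair the libraries: the correlations of same-numbered deviations were -0.14 to 0.11, and libraries did not all correlate best with their own number. With the replicate block, 0 members were called higher and 0 lower in BS6 against SB2, Ccr9 was no longer called in BS6 against BS2, and the other calls there and all in SB4 against SB2 were kept. Depth limits what SB4 and BS2 can show, where 3 counts in a library equal 0.16 to 0.22 CPM. With 3 libraries a group, a library such as BS6 replicate 2 can set a mean.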
